A study of Mus musculus with 25 samples.

Results

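The proteasome subunit genes were taken as every gene symbol of the tables that starts with Psma, Psmb, Psmc, Psmd, Psme, Psmf or Psmg and goes on with a number, leaving out the inducible subunits Psmb8, Psmb9 and Psmb10. The rule found 45 of the 15315 genes of the long-term table and 44 of the 14007 genes of the short-term table, Psmd10 having values in the long-term table only. By role they were 7 genes of the 20S alpha ring, 7 of the 20S beta ring, 6 ATPases and 11 other subunits of the 19S particle, 5 activators or inhibitors, 7 assembly chaperones and 2 genes that match by name only. These last are Psmc3ip, a cofactor of meiotic and homologous recombination that is no part of the proteasome, and Psme2b, a near-copy of Psme2. All of them passed the filter on low values in the tables that list them, with at least 12 reads in every long-term mouse and at least 15 in every short-term mouse.

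The proteasome degrades proteins tagged with ubiquitin. Its 20S core is a barrel of stacked alpha and beta rings, inside which Psmb5, Psmb6 and Psmb7 carry the proteolytic sites, and the 19S particle caps the barrel, binds and deubiquitinates the substrate and threads it inwards with a ring of ATPases. Psme1 and Psme2 form another cap, which interferon gamma induces together with Psmb8, Psmb9 and Psmb10. The subunit genes are known to rise together through the transcription factor Nfe2l1 when proteasome activity falls short, and the retinoblastoma protein RB, product of Rb1, is known to restrain the E2F transcription factors.

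RNA was sequenced from pituitaries of shRb mice, which carry Rosa26-rtTA and a doxycycline (dox)-inducible transgene at Col1a1 that expresses an shRNA against Rb1 together with GFP. The Rosa26 promoter is active in most tissues, the line carries 1 shRNA and came from 1 embryonic stem cell clone (shRb5-4), each library is 1 mouse, and every group carries the same alleles and received dox, so that no group was free of knock-down from the start. In the long-term experiment, from poly(A)-enriched RNA, the groups were 6w+dox (6 weeks of dox, n = 3, all female), 12w+dox (12 weeks of dox, n = 4, 2 female and 2 male) and 12w-res (6 weeks on dox and then 6 weeks off, n = 5, 3 female and 2 male). In the short-term experiment, from rRNA-depleted RNA, mice had 16 weeks of dox and were taken on dox (16w +dox, n = 3, male) or 1 day (n = 4, female), 3 days (n = 3, male) or 5 days (n = 3, female) after its removal. The age of each group is not given in the labels beyond its time on dox.

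Levels are given in FPM, the reads of a gene scaled to a common library size after division by DESeq2 size factors. The libraries held 19066100 to 28968500 reads on genes in the long-term and 9573100 to 13036900 in the short-term experiment. Rb1 stood at 1.86, 2.54 and 5.09 FPM in the 6w+dox mice and between 2.42 and 4.05 FPM in the 12w+dox mice, against 16.1 to 20.3 FPM in the 12w-res mice, as the labels give it. In the short-term mice GFP fell from 1025 to 1360 FPM on dox to 9.34 to 15.2 FPM at 5 days off dox, while Rb1 stood at 3.47 to 4.89 and at 4.92 to 5.38 FPM in the same groups (log2 fold change 0.27, SE 0.173, adjusted p = 0.525). All 5 markers of melanotrophs and corticotrophs, Pomc, Pcsk2, Pax7, Tbx19 and Oacyl, had reads in every mouse of both experiments. From 6w+dox to 12w+dox 2 of them rose by limma, against 10.4% of all genes, and none fell, against 12.0%. Their sum stood at 110911 to 382996 FPM at 6w+dox and at 98586 to 201557 FPM at 12w+dox. Here and below an adjusted p is that of limma on log2(FPM + 0.5), adjusted by Benjamini-Hochberg over all genes of the table, and a gene is said to rise or fall where it is under 0.05. The p-values measure the spread between these mice.

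Upstream sequences of 4 of the genes are shown first, because they hold the letters by which Nfe2l1 and E2F factors are usually sought, or belong to the gene that changed most. RefSeq promoters of GRCm38.p6 were at hand for 38 of the 45 genes, leaving out Psmb1, Psmb2, Psmb7, Psmc3, Psmd3, Psmd7 and Psmg2. Over the 250 bases before the start, on both strands, the antioxidant response element (TGACNNNGC) occurred in 5 of 38 genes, or 13.2%, against 14.0% of all genes of the tables with a promoter and 10.2% of all promoters. An E2F motif (TTTCCCGC, TTTGGCGC, TTTCGCGC or TTTGCCGC) occurred in 1 of 38, or 2.63%, against 3.70% and 1.86%, and an interferon-stimulated response element in 3 of 38, or 7.89%, against 3.15% and 2.98%. Neither Psme1 nor Psme2 held these letters in the window. The sequences run 5′ to 3′ on the strand of the gene and end at the base before its start. Capitals mark an antioxidant response element in Psmb5 (chr14:54617996-54618245, minus strand) and in Psmd9 (chr5:123227940-123228189, plus strand), which also holds an interferon-stimulated response element further from its start, and an E2F motif in Psmc4 (chr7:28050093-28050342, minus strand), while Psmc3ip (chr11:101095436-101095685, minus strand) held none of the 3 and has no capitals. A match is a string of letters and not a site shown to be bound.
Psmb5: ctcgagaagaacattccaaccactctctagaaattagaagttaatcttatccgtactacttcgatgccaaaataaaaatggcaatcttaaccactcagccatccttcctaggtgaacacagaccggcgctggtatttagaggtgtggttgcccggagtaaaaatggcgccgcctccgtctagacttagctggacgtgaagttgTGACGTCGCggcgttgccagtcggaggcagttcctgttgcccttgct
Psmd9: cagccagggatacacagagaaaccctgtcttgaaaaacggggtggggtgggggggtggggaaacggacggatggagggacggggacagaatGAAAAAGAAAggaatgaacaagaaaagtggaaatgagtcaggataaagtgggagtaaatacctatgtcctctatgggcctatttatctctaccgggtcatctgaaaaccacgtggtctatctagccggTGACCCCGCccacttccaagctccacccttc
Psmc4: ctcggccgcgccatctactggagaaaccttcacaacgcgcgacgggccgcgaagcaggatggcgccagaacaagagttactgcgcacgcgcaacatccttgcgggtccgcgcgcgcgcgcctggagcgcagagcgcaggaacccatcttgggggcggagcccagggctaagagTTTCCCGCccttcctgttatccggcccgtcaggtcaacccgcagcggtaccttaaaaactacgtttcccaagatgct
Psmc3ip: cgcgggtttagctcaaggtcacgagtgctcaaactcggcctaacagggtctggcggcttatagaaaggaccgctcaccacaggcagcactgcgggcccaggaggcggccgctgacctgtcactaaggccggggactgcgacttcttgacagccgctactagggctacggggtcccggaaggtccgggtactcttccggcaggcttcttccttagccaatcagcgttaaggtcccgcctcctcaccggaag

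Divided by the length of the principal transcript, the alpha ring genes lay between 26.8 and 122 FPM per kilobase in the 12w+dox mice, the 19S ATPases between 27.1 and 55.5, the other 19S subunits between 17.4 and 59.8 and the assembly chaperones between 7.36 and 18.3. Psma7 of the alpha ring led at 122 ± 27.5 FPM per kilobase (SD, n = 4), followed by Psmb4 at 106 ± 17.4, a difference within their SDs. The beta ring genes other than Psmb5 lay between 68.4 and 106 FPM per kilobase, and Psmb5, the subunit with chymotrypsin-like activity, at 8.29 ± 1.53. Of the Psmb5 transcript 88.4% matched other genes at 95% identity or more, among them the processed pseudogene Gm3375, so that reads of Psmb5 can be lost or split. Such matches of at least 100 bases were found for 10 genes, covering over 50% of the transcript in Psma4, Psma5, Psmb3, Psmb5, Psmc1, Psmd2, Psmd11, Psme2 and Psme2b, whose values are therefore less certain. Of Psmc3ip, 21.2% of the exon bases overlapped Mlx on the other strand, and of Psmd9 25.5% overlapped Gm26745, also on the other strand. Psmb7 shared 11.8% with Nek6 and Psmd13 10.1% with Sirt3, again on the other strand. Psmb5 shared 12.1% with Mir686 on its own strand, and other genes overlapped less.

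The first comparison, 12w+dox against 6w+dox, asks what changes as the tumors grow on dox. Part of the subunit genes were lower at 12 weeks, with the most calls in the 20S beta ring and the 19S ATPase ring. Among the 45 genes 13 fell, against 12.0% of all genes tested, and 1 rose, against 10.4% of all genes, and none fell by more than 1 on the log2 scale by limma, against 4.04%, while edgeR called Psmg4 at that size and DESeq2 called 1 gene. The median log2 fold change was -0.38 over the 45 genes and -0.01 over all genes. When libraries were scaled by their totals of reads in place of size factors, 4 genes fell, against 5.00% of all genes, and 4 rose, against 24.2%, with a median of -0.06, and the median of all genes moved to 0.29, so that the 45 genes stood at -0.38 and -0.35 relative to all genes under the 2 scalings. By role, 4 of the 7 beta ring genes fell (median -0.75), 2 of the 7 alpha ring genes (median -0.42), 3 of the 6 ATPases (median -0.48) and 1 of the 11 other 19S subunits (median -0.14). All 14 genes of the 20S core had a log2 fold change below 0.

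Psmb2, a beta ring subunit, stood at 135, 142 and 89.7 FPM in the 6w+dox mice and at 70.2, 70.0, 79.1 and 65.8 FPM in the 12w+dox mice. Every 6-week mouse was above every 12-week mouse, with a log2 fold change of -0.75 (SE 0.156, adjusted p = 0.00533). Psma4, an alpha ring subunit, stood at 108, 90.1 and 50.7 against 49.0, 43.7, 46.0 and 44.0 FPM, a log2 fold change of -0.79 (SE 0.193, adjusted p = 0.0118), again without overlap although the third 6-week mouse came close to the 12-week mice. The beta ring gene Psmb3 went from 151, 117 and 62.2 FPM to 47.1, 62.5, 78.1 and 52.1 FPM (log2 fold change -0.80, SE 0.246, adjusted p = 0.0310). Here the third 6-week mouse lay inside the 12-week range.

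The catalytic subunits did not all pass the test. Psmb5 had 14.0, 19.3 and 8.53 FPM at 6 weeks and 6.04, 7.52, 9.30 and 6.95 FPM at 12 weeks (log2 fold change -0.80, SE 0.267, adjusted p = 0.0436). Psmb6, the caspase-like subunit, had 152, 136 and 75.1 FPM and then 59.6, 74.6, 86.7 and 56.1 FPM (log2 fold change -0.76, SE 0.213, adjusted p = 0.0221). In both genes the groups overlapped through the third 6-week mouse. Psmb7, the trypsin-like subunit, had 149, 127 and 73.0 FPM and 73.4, 94.9, 99.7 and 76.0 FPM, with a log2 fold change of -0.38 (SE 0.207, adjusted p = 0.197) that missed the threshold.

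Among the ATPases, which unfold the substrate, Psmc5 (-0.70, SE 0.170, adjusted p = 0.0109), Psmc2 (-0.56, SE 0.158, adjusted p = 0.0221) and Psmc4 (-0.56, SE 0.169, adjusted p = 0.0306) fell on the log2 scale. The alpha ring gene Psma5 changed by -0.56 (SE 0.162, adjusted p = 0.0247). Psmd12, the 1 non-ATPase 19S subunit that passed, changed by -0.47 (SE 0.146, adjusted p = 0.0352). It ranked below the 12 set for naming by size and was named after its values were seen. The large scaffold subunits Psmd1 and Psmd2 had log2 fold changes of -0.15 and 0.16, and the lid subunits Psmd3, Psmd7, Psmd11 and Psmd13 lay between -0.04 and 0.12, none of them past the threshold.

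Psmd4 and Psmd14, which are among the 19S subunits that handle the ubiquitin chain, missed the threshold. Psmd4, a ubiquitin receptor, had 139, 110 and 78.0 FPM at 6 weeks and 66.4, 86.7, 86.4 and 67.7 FPM at 12 weeks (log2 fold change -0.48, SE 0.166, adjusted p = 0.0528). Psmd14, the deubiquitinase of the lid, had 55.4, 46.6 and 33.6 FPM and 34.0, 40.4, 47.4 and 32.3 FPM (log2 fold change -0.22, SE 0.181, adjusted p = 0.418). For both genes the highest 12-week mice exceeded the lowest 6-week mouse.

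Of the caps other than 19S, Psme1 stood at 152, 158 and 93.8 FPM at 6 weeks and at 80.4, 79.3, 92.4 and 74.2 FPM at 12 weeks, without overlap (log2 fold change -0.69, SE 0.230, adjusted p = 0.0453), a call lost without any of 6 of the 7 mice. Its partner Psme2 had 113, 111 and 64.5 FPM and then 46.7, 52.1, 65.2 and 48.5 FPM, with 1 12-week mouse just above the third 6-week mouse (-0.81, SE 0.226, adjusted p = 0.0208). Psme3 and Psme4, the nuclear caps, and the inhibitor Psmf1 were not called, at -0.09, 0.23 and -0.02. Beside them the inducible beta subunits Psmb8 and Psmb10 fell by 0.91 and 0.77 on the log2 scale (adjusted p = 0.0284 and 0.0247), and Psmb9 had -0.48 (adjusted p = 0.203).

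The chaperones moved both ways. Psmg4, which helps to build the alpha ring, went from 21.8, 26.6 and 12.7 FPM to 9.04, 11.4, 11.7 and 8.32 FPM without overlap, the largest fall of the 45 genes (log2 fold change -0.92, SE 0.234, adjusted p = 0.0137). Psmd5, a chaperone of the 19S base, was the 1 gene that rose, from 44.5, 33.3 and 32.7 FPM to 46.9, 54.9, 57.6 and 44.3 FPM (0.47, SE 0.135, adjusted p = 0.0247), its groups overlapping by 1 mouse at about 44 FPM. Its values per mouse are given because it stands alone and were picked after they were seen. It rose also with libraries scaled by totals (0.79), but the call was lost without 12w+dox replicate 2 or 3 or 6w+dox replicate 2 or 3 (0.39 to 0.43), with sex as a covariate (adjusted p = 0.0537) and among female mice only (adjusted p = 0.119).

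**Figure D1:**
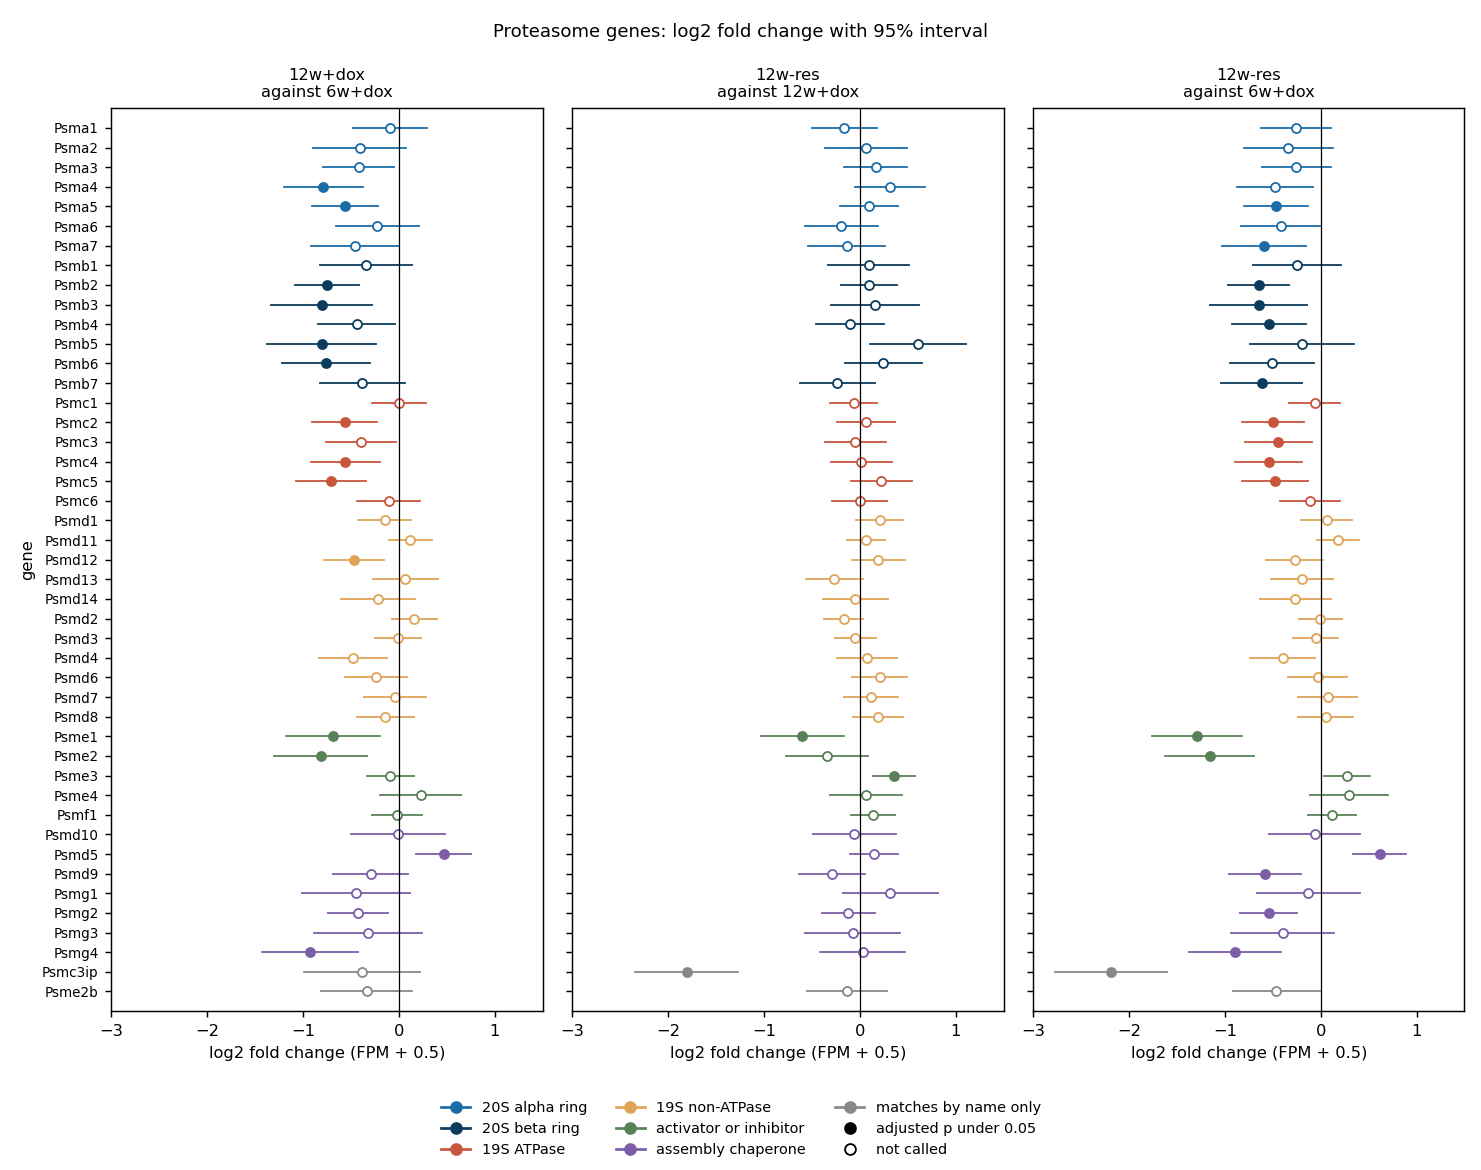
Log2 fold change on the log2(FPM + 0.5) scale (x axis) of the 45 proteasome genes (y axis, coloured by role) in the 3 long-term comparisons, with 95% intervals; filled points passed an adjusted p of 0.05. In the first panel 13 genes fell and Psmd5 rose, in the second Psmc3ip and Psme1 fell and Psme3 rose, and in the third 16 fell and Psmd5 rose.

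The level at 6 weeks rested on 2 of the 3 mice. The summed level of the 31 subunits of the 20S core and 19S particle was 3777, 3233 and 2170 FPM in 6w+dox replicates 1, 2 and 3, against 2141 to 2698 FPM in the 12w+dox mice and 2260 to 2658 FPM in the 12w-res mice. Replicate 3 was the lowest of the 6-week mice in 43 of the 45 genes, against 39.8% of all genes, and replicate 1 was the highest of all 12 mice in 31 of the 45, against 16.8% of all genes. Without replicate 1 only 1 of the 45 genes fell at 12 weeks, against 7.02% of all genes, with a median of -0.17. Without replicate 2 it was also 1, against 4.96%, with a median of -0.31, and without replicate 3 it was 25, against 17%, with a median of -0.55. Without 12w+dox replicate 1, 2 or 4 there were 8, 8 and 5, against 11.1%, 8.41% and 8.31% of all genes.

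**Figure D2:**
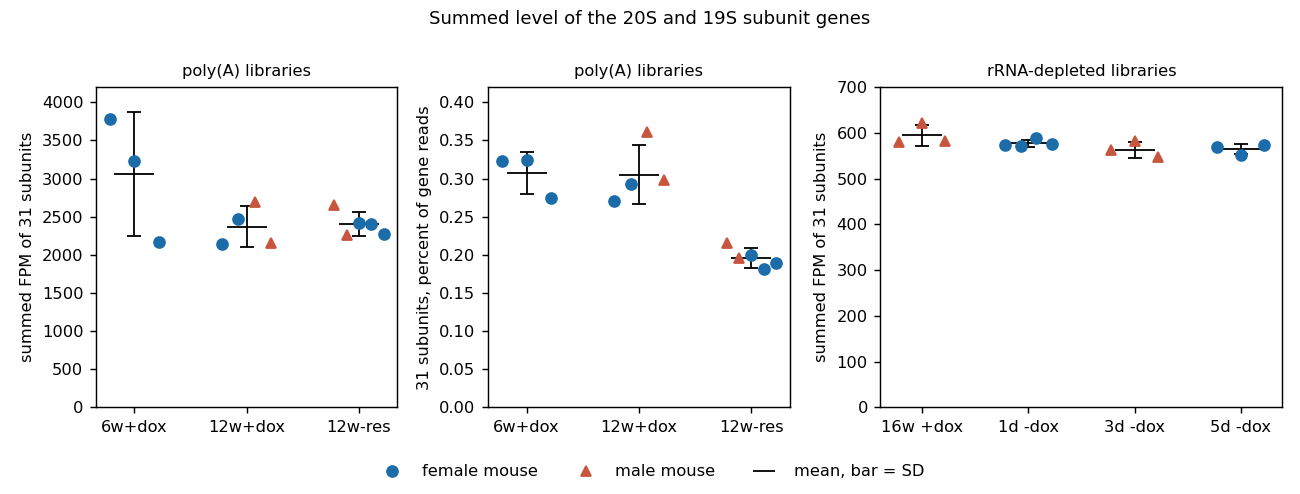
Summed FPM of the 31 subunit genes per mouse (left and right panels, y axis) and the same as a percent of all reads on genes (middle panel), by group (x axis), with the mean and SD; circles are female and triangles male mice. The 6-week mice at 3777 and 3233 FPM stand above all others, the share of reads is lowest in the 12w-res mice at 0.181 to 0.216%, and the short-term groups lie between 547 and 621 FPM.

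The change also went with transcript length. Over the 45 genes the log2 fold change of 12w+dox against 6w+dox had a Pearson correlation of 0.74 with the log2 of transcript length. The Spearman correlation with length was 0.68. Both are given as a description across genes that share the same 7 libraries. Over 14784 genes with a length these were 0.29 and 0.34. The 24 proteasome genes with transcripts under 1500 bases had a median of -0.46, against -0.36 for all 2318 genes of that length, and 11 of the 13 that fell were among them. The 17 of 1500 to 3000 bases had a median of -0.14 against -0.07, and the 4 longer ones 0.11 against 0.13. The part of transcript length in the result was not tested.

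**Figure D3:**
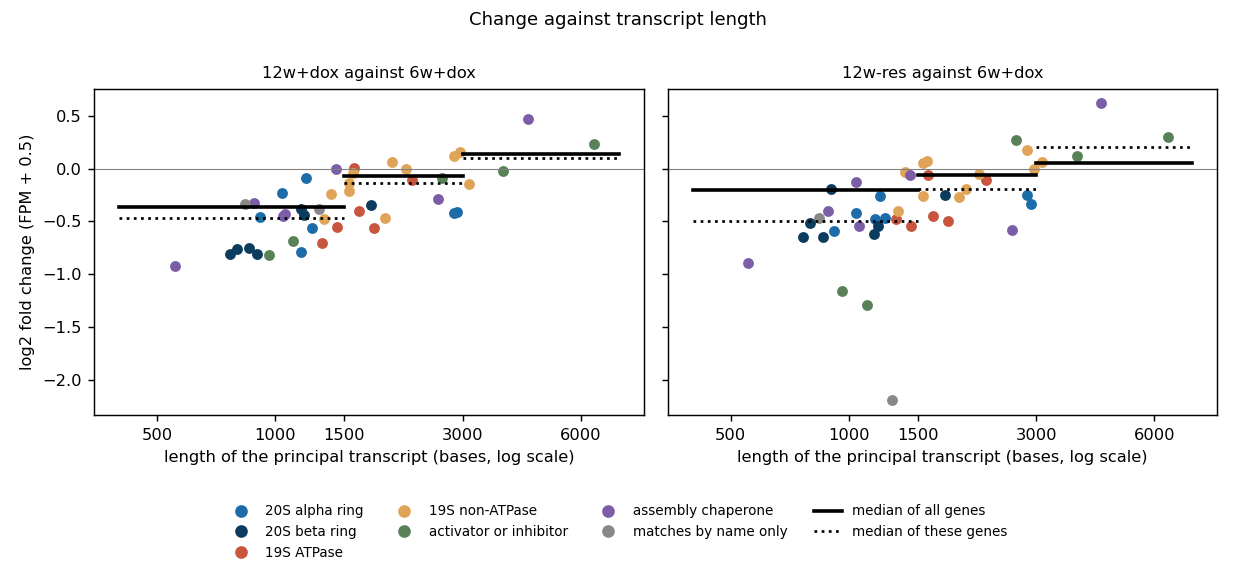
Log2 fold change (y axis) against the length of the principal transcript in bases (x axis, log scale) for the 45 genes, coloured by role, in the comparisons with 6w+dox; solid lines are medians of all genes in 3 length classes and dotted lines medians of the proteasome genes. In the shortest class the medians of all genes and of the proteasome genes are -0.36 and -0.46 at 12w+dox and -0.20 and -0.49 at 12w-res.

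Other tissue moved with the same comparison. The 8 markers of other hormone cells, among them Gh and Prl, summed to 58669 to 94156 FPM at 6 weeks and 1217 to 13053 FPM at 12 weeks, and 6 of 8 fell. The neural lobe markers Avp and Oxt summed to 32.3 to 103 FPM and then 1.66 to 3.91 FPM, and both fell. In bulk pituitaries fewer cells of a type and less RNA per cell cannot be told apart, and the part of this shift in the proteasome genes was not tested.

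The second comparison, 12w-res against 12w+dox, asks what 6 weeks without dox do relative to pituitaries kept on dox throughout. The paper reports that RB returned only some weeks after dox removal in late-stage tumors. The time with RB restored may thus be shorter than the time off dox. Subunit genes did not pass the test: of the 31 genes of the 20S core and 19S particle none was called by limma, 1 had an unadjusted p under 0.05, and edgeR and DESeq2 each called Psmb5 higher (adjusted p = 0.0470 and 0.0255). Of the 45 genes 2 fell, against 18.3% of all genes tested, and 1 rose, against 19.4%, with 1 below -1 on the log2 scale, against 5.04%. Their median log2 fold change was 0.06. For the 31 subunits the 95% limits reached at most from -0.62 (Psmb7) to 1.11 (Psmb5).

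Psmc3ip, the recombination cofactor, changed most. It stood at 4.64, 6.47, 9.92 and 5.33 FPM in the 12w+dox mice and at 1.87, 1.90, 1.27, 0.708 and 1.82 FPM in the 12w-res mice. No 12w-res mouse came near the 12w+dox range, the means being 6.59 and 1.52 FPM (log2 fold change -1.81 on the log2(FPM + 0.5) scale, SE 0.250, adjusted p = 8.89e-05, and -2.11 by edgeR). It kept its call without any of the mice, at -1.94 to -1.60. The 3 proliferation markers Mki67, Top2a and Cdk1 fell in the same mice, from a sum of 230 to 334 FPM to 17.8 to 23.6 FPM, and the part of this in Psmc3ip was not tested.

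Among the activators, Psme3, which caps nuclear proteasomes, had 35.7, 39.8, 45.2 and 46.9 FPM on dox and 54.6, 53.3, 50.2, 55.9 and 54.0 FPM after release. All 5 released mice were above all 4 mice on dox (log2 fold change 0.36, SE 0.102, adjusted p = 0.0132). The sign turned to -0.29 when libraries were scaled by their totals of reads, which moved the median of all genes by -0.60. Psme1 went the other way, from 80.4, 79.3, 92.4 and 74.2 FPM to 87.4, 50.1, 54.8, 42.7 and 42.5 FPM (-0.60, SE 0.202, adjusted p = 0.0305). Its first 12w-res mouse lay within the range on dox, and the call was lost without any of 7 of the 9 mice and with edgeR (adjusted p = 0.0576).

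Psme2 had 63.5, 41.6, 37.9, 33.9 and 35.8 FPM in the 12w-res mice against 46.7 to 65.2 FPM on dox and was not called (-0.34, SE 0.198, adjusted p = 0.187). The inducible subunit Psmb9 fell from 11.4, 13.9, 18.6 and 10.4 FPM to 10.4, 7.82, 6.78, 6.79 and 4.37 FPM (-0.88, adjusted p = 0.00844), the highest released mouse meeting the lowest mouse on dox. Psmb8 and Psmb10, at -0.54 and -0.00, were not called. All 7 macrophage and leukocyte markers rose in the same comparison, from a sum of 99.9 to 131 FPM to 151 to 222 FPM, as did all 4 endothelial and all 4 fibroblast and pericyte markers. The melanotroph and corticotroph markers summed to 98586 to 201557 FPM on dox and 462270 to 583568 FPM after release. Those of other hormone cells summed to 1217 to 13053 and 17320 to 34968 FPM. The neural lobe sums overlapped, at 1.66 to 3.91 and 0.951 to 3.69 FPM. The part of these shifts was not tested.

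Of the catalytic subunits, Psmb5 had 16.1, 13.3, 8.28, 11.8 and 9.61 FPM after release, of which 8.28 lay within the 6.04 to 9.30 FPM of the 12w+dox mice and the others above (log2 fold change 0.61, 95% interval 0.11 to 1.11, adjusted p = 0.0533). Psmb6 had 95.5, 72.0, 85.5, 78.6 and 75.3 FPM (0.25, interval -0.16 to 0.65), and Psmb7 91.5, 71.6, 65.9, 69.7 and 66.4 FPM (-0.23, interval -0.62 to 0.16). Psmd4, with 86.9, 80.5, 78.6, 79.9 and 76.8 FPM, and Psmd14, with 41.9, 30.1, 41.3, 37.0 and 35.0 FPM, changed by 0.08 (interval -0.23 to 0.39) and -0.05 (interval -0.39 to 0.29).

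As a share of all reads on genes, the 31 subunits took 0.270 to 0.361% in the 12w+dox mice and 0.181 to 0.216% in the 12w-res mice, without overlap. Pomc alone took 12.9 to 23.0% of the reads in the former and 39.1 to 43.2% in the latter. When libraries were scaled by their totals in place of size factors, the median log2 fold change moved to -0.61 over all genes and to -0.59 over the 45 genes, 42 of which were then called lower, against 60.3% of all genes. Relative to the median of all genes the 45 genes stood at 0.07 with size factors and 0.02 with totals.

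**Figure D4:**
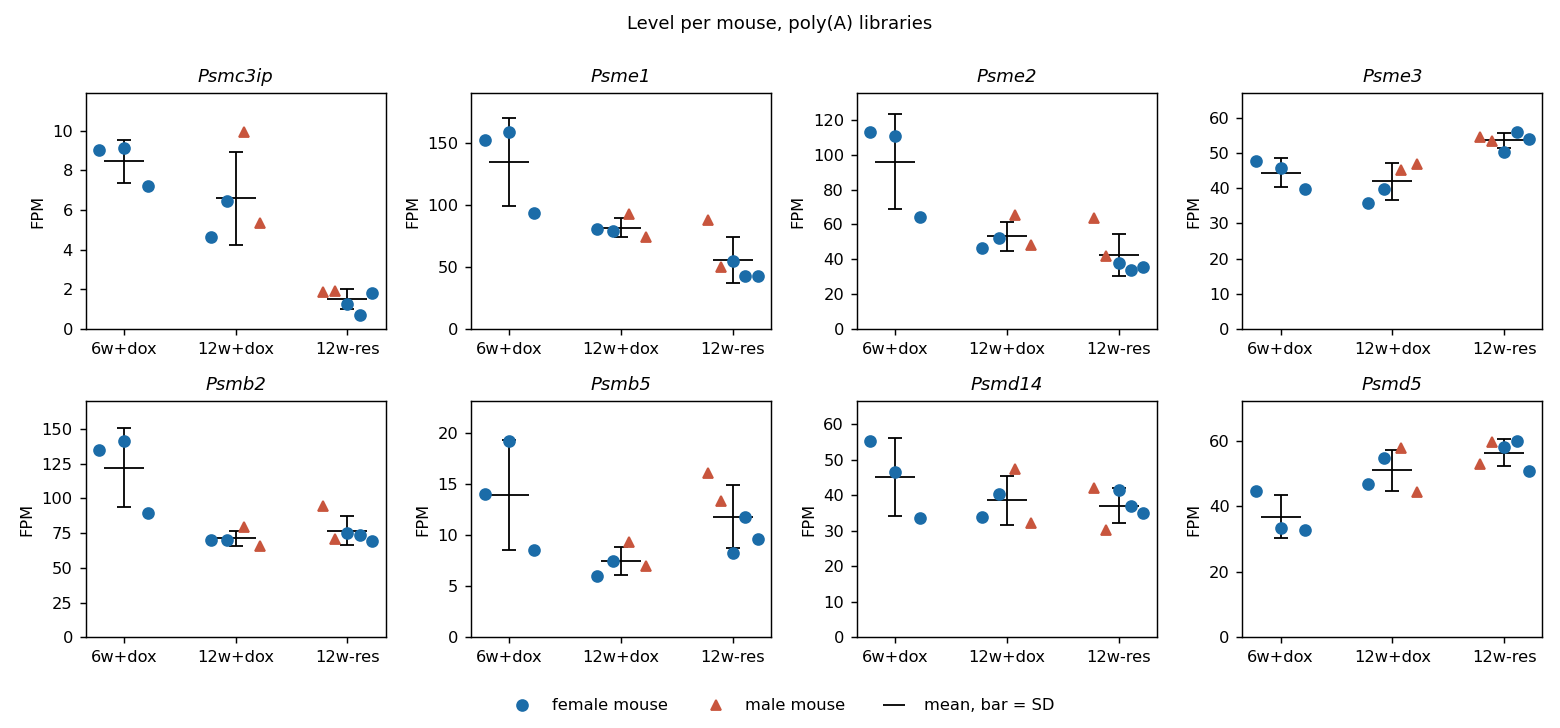
FPM per mouse (y axis) of 8 genes in the 3 long-term groups (x axis), with the mean and SD; circles are female and triangles male mice. Psmc3ip is at 0.708 to 1.90 FPM in all 12w-res mice, 1 of the 12w-res mice stands above the others in Psme1 and Psme2, and in Psmb2, Psmb5 and Psmd14 the third 6-week mouse is the lowest of the 6-week mice.

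The third comparison, 12w-res against 6w+dox, sets the released mice against the stage at which dox was withdrawn, and shares the 6w+dox mice with the first comparison and the 12w-res mice with the second. Of the 45 genes 16 fell, against 16.8% of all genes tested, and 1 rose, against 17%, with 3 below -1 on the log2 scale, against 5.82%. The median was -0.34, against -0.02 over all genes, and with libraries scaled by totals 34 fell, against 33.1% of all genes, none rose, against 6.97%, and the median was -0.67, against -0.33. Again the fall was found in the 20S core (6 of 14) and the ATPases (4 of 6), and in none of the 11 other 19S subunits by limma, of which 1 had an unadjusted p under 0.05, and edgeR called none and DESeq2 Psmd4 (adjusted p = 0.0350). Beside this, both neural lobe markers and 3 of the 8 markers of other hormone cells fell, with medians of -3.58 and -1.64 on the log2 scale, all 3 proliferation markers fell, and 5 of the 7 macrophage and leukocyte, 2 of the 4 endothelial and 2 of the 4 fibroblast and pericyte markers rose. Their part in the result was not tested.

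The 3 genes below -1 were Psmc3ip (-2.19, SE 0.272, adjusted p = 4.08e-05), Psme1 (-1.29, SE 0.220, adjusted p = 5.48e-04) and Psme2 (-1.16, SE 0.216, adjusted p = 0.00106). Psmc3ip had 9.02, 9.13 and 7.20 FPM at 6 weeks, above all released mice. The lowest 6-week values of Psme1, 93.8 FPM, and of Psme2, 64.5 FPM, likewise exceeded the highest 12w-res values of 87.4 and 63.5 FPM. Psmc3ip, Psme1 and Psme2 kept their calls without any single mouse, at -2.29 to -2.02, at -1.53 to -1.15 and at -1.42 to -1.02.

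Psmg4 followed at -0.89 (SE 0.224, adjusted p = 0.00734) and the other chaperones Psmd9, at -0.58, and Psmg2, at -0.54, also fell. Of the beta ring, Psmb2 (-0.65, SE 0.150, adjusted p = 0.00441), Psmb3 (-0.65, SE 0.235, adjusted p = 0.0466), Psmb7 (-0.62, SE 0.198, adjusted p = 0.0273) and Psmb4 (-0.54, SE 0.180, adjusted p = 0.0314) fell. Psma7 of the alpha ring changed by -0.59 (SE 0.204, adjusted p = 0.0378). The calls of Psmb3, Psmb4 and Psma7 were each lost on leaving out any 1 of 6 mice, and that of Psmb7 any 1 of 5. Psmb2 kept its call without any single mouse. In Psmb2 the first 12w-res mouse, at 94.8 FPM, exceeded the third 6-week mouse, and the others, from 69.5 to 75.4 FPM, did not.

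Psmd5 again was the 1 gene that rose, to 52.9, 59.6, 58.2, 60.0 and 50.9 FPM from 32.7 to 44.5 FPM, without overlap (0.62, SE 0.129, adjusted p = 0.00241), and stood at 0.29 (adjusted p = 0.0806) with libraries scaled by totals. The inducible subunits all fell, Psmb8 by 1.45, Psmb9 by 1.36 and Psmb10 by 0.77 on the log2 scale. The count of 16 depended on the 6-week mice as in the first comparison, being 6 without replicate 1, 5 without replicate 2 and 26 without replicate 3, against 14.4%, 12.1% and 18.9% of all genes. It was 10, 9, 9 and 9 without 12w-res replicate 2, 3, 4 or 5, against 14.5%, 14.5%, 13.9% and 14.0% of all genes. Among female mice only it was 9, against 13.2%. In the class under 1500 bases the proteasome genes had a median of -0.49 against -0.20 for all genes of that length.

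Within the 12w-res and 12w+dox groups, which hold both sexes, the effect of release in females was compared with that in males. None of the 45 genes had an interaction by limma, and none had an unadjusted p under 0.05, against 2.74% of all genes, 5 of which had an adjusted p under the threshold. The SE of the difference between the sexes ran from 0.196 (Psmd11) to 0.502 (Psmg1) on the log2 scale. With so few mice of each sex, differences of that size could be missed.

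The short-term experiment asks what happens to these genes in the first days after dox removal after 16 weeks of dox. None of the 44 genes was called by limma, edgeR or DESeq2 at 1, 3 or 5 days against 16w +dox, nor at 5 days against 1 day. The share of all genes called by limma was itself small, at 0.100%, 0.358%, 0.509% and 0.0143% in that order. With edgeR 0.0215%, 0.136%, 0.294% and 0.00716% of all genes were called higher and 0.0502%, 0.186%, 0.165% and 0.00716% lower. With DESeq2 these shares were 1.03%, 1.15%, 1.27% and 0.115% higher and 1.19%, 1.71%, 1.12% and 0.0287% lower. At an unadjusted p under 0.05 there were 1, 9, 4 and 2 of the 44 genes by limma, against 13.1%, 16.6%, 13.5% and 6.33% of all genes. At the same bound edgeR gave 2, 7, 4 and 2 and DESeq2 1, 7, 4 and 2. Of all 13958 genes edgeR then had 912, 1118, 934 and 489 higher and 966, 1239, 980 and 429 lower. DESeq2 had 924, 1035, 943 and 484 higher and 934, 1260, 927 and 391 lower. The median log2 fold changes were -0.04, -0.06, -0.07 and -0.03. The 3-day mice and the 16w +dox mice are all male, so that this comparison and that of 5 days with 1 day, all female, are each within 1 sex, while at 1 and 5 days sex and time off dox cannot be told apart from the 16w +dox group.

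Over the 31 subunits the 95% limits ran from -0.54 (Psmb5) to 0.28 at 1 day, from -0.77 (Psmb5) to 0.56 (Psmb7) at 3 days and from -0.46 (Psmb6) to 0.33 (Psmb7) at 5 days, so that no subunit's interval reached 1 on the log2 scale in either direction. Their summed level was 579, 621 and 582 FPM on dox, 570 to 588 FPM at 1 day, 547 to 581 FPM at 3 days and 551 to 572 FPM at 5 days. These levels cannot be set beside the long-term ones, since the tables were normalized separately and the libraries made in another way.

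Psmd4 and Psmd14 are given in full as subunits that handle the ubiquitin chain. At 3 days Psmd4 had 34.1, 35.9 and 31.2 FPM against 39.6, 41.1 and 37.3 FPM on dox, without overlap (-0.22, SE 0.0726, adjusted p = 0.165), and at 5 days it had 36.3, 37.0 and 36.8 FPM (-0.10, adjusted p = 0.593). Psmd14 had 8.72, 8.96 and 9.12 FPM at 5 days against 10.1, 11.7 and 10.4 FPM on dox (-0.25, SE 0.0871, adjusted p = 0.236) and 11, 9.69 and 10.2 FPM at 3 days. Both differences were below the threshold once all genes were counted.

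Of the catalytic subunits, Psmb5 had 2.72, 3.23 and 2.83 FPM on dox, 2.20 to 3.27 FPM at 1 day, 1.56 to 2.81 FPM at 3 days and 2.58 to 3.07 FPM at 5 days. Psmb6 lay at 11.1 to 13 FPM on dox and at 9.20 to 10.8 FPM at 5 days, where its log2 fold change was -0.24 (SE 0.103, adjusted p = 0.329). Psmb7 lay at 5.95 to 6.31 FPM on dox and at 6.88 to 7.36 FPM at 3 days (0.21, SE 0.160, adjusted p = 0.531). The groups of Psmb6 at 5 days and of Psmb7 at 3 days did not overlap with the mice on dox, but neither gene was called. Groups without overlap were found in 8 of the 31 subunits at 3 days and in 8 at 5 days. The share of all genes without overlap is not given here.

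Psmc3ip did not show the fall of the long-term mice within 5 days. It had 2.80, 2.0 and 3.04 FPM on dox, 2.88 to 3.51 FPM at 1 day, 3.22 to 3.64 FPM at 3 days and 3.06 to 3.38 FPM at 5 days, with log2 fold changes of 0.26, 0.35 and 0.27 (adjusted p = 0.414, 0.235 and 0.416). The proliferation markers summed to 145 to 223 FPM on dox and 174 to 205 FPM at 5 days. Psme1, at 33.0 to 44.1 FPM on dox and 32.4 to 37.5 FPM at 5 days, and Psme2, at 9.54 to 11.7 and 8.10 to 10.8 FPM, had adjusted p of 0.920 and 0.771.

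**Figure D5:**
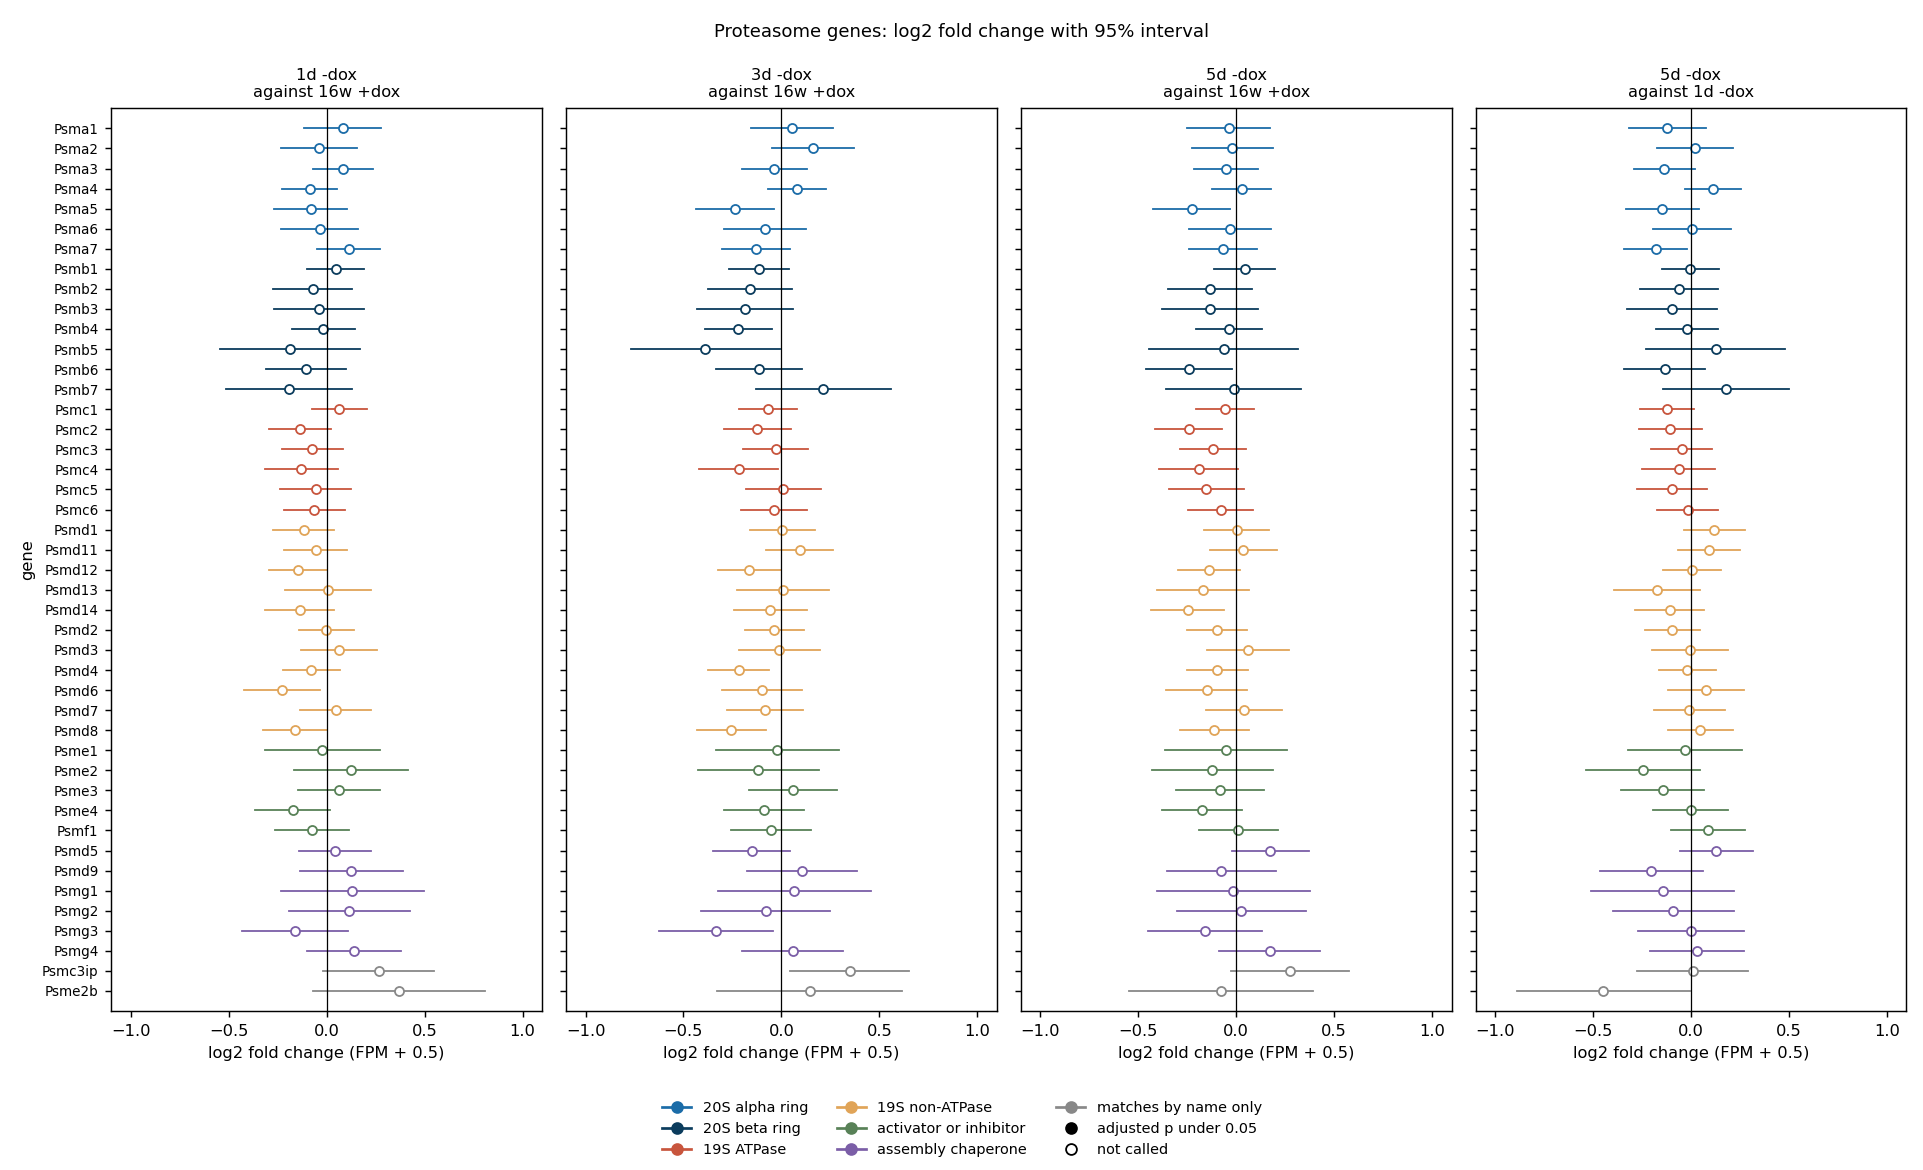
Log2 fold change on the log2(FPM + 0.5) scale (x axis) of the 44 proteasome genes (y axis, coloured by role) in the 4 short-term comparisons, with 95% intervals. All points are open, since none passed the threshold, and the medians lie between -0.07 and -0.03.

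The wider pathway was read from a list of 31 genes for ubiquitin, its loading and recognition, and the regulators of proteasome genes, of which 30 were in the long-term table. At 12w+dox against 6w+dox 4 of the 30 rose and 6 fell, against 10.4% and 12.0% of all genes. The polyubiquitin gene Ubb fell by 0.63 on the log2 scale (adjusted p = 0.0472), and Shfm1, the small 19S subunit also named Sem1, fell by 1.12 (adjusted p = 0.00669). The proteasome maturation factor Pomp fell by 0.81 (adjusted p = 0.0128), while Ddi2, the protease that activates Nfe2l1, rose by 1.49 (adjusted p = 0.00373) and the stress-inducible Zfand2a by 0.84 (adjusted p = 0.00768).

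After release, against 12w+dox, 9 of the 30 rose and 3 fell, against 19.4% and 18.3% of all genes. The ubiquitin fusion gene Rps27a rose by 0.86 on the log2 scale (adjusted p = 0.00885), and Nfe2l1 itself from 202 to 307 FPM on average (0.60, adjusted p = 0.00268). Ddi2 changed by -0.89 (adjusted p = 0.0142), its means being 3.51, 9.90 and 5.12 FPM at 6w+dox, 12w+dox and 12w-res. With libraries scaled by totals the median of all genes moves by -0.60 in this comparison, which is about as much as the rise of Nfe2l1. Against 6w+dox 5 rose and 4 fell, against 17% and 16.8% of all genes, with Nfe2l1 at 0.63 and Ngly1, which deglycosylates it, at 0.62 (adjusted p = 0.00373 and 0.00561). In the short-term experiment none of 28 genes was called by limma or edgeR at any time, DESeq2 called 1 at 3 days, and 0, 7, 6 and 1 had an unadjusted p under 0.05 at 1, 3 and 5 days and between 5 days and 1 day, against the shares of all genes given above.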

How the data were processed

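The values analysed were gene-level FPM in 12 long-term (poly(A)) and 13 short-term (rRNA-depleted) mouse libraries. The authors mapped reads with STAR to mm10, kept RefSeq genes that reached 10 reads in over 50% of a condition's libraries, and deposited a signal per gene (FPM), that is reads divided by DESeq2 size factors and rescaled. The counting tool and its use of strand are not given in the sources used here. Whole reads could be recovered from 100% of the values within 0.1 read. The short-term table keeps STAR's lines for unmapped, multi-mapped, ambiguous and unassigned reads, 68.8 to 75.0% of its total, and 2 lines of the other table have no gene name, all left out.

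The main test was limma 3.58.1 (R 4.3.3) with a trended variance on log2(FPM + 0.5), all mice of a table in 1 fit. FPM were taken as deposited and the pseudocount of 0.5 understates the change of low genes. edgeR 4.0.16 (quasi-likelihood) and DESeq2 1.42.0 on the recovered reads were alternatives. Another scaling, filter, pseudocount, the groups compared alone, sex, females only, a replicate block and leaving out each mouse were also tried, and the steps were tested on simulated data. Replicates are separate mice, and those of 1 group differed by more than sampling noise. Genes were named by a rule: up to 12 called genes per comparison by size of change, values per mouse for up to 6 of them and for Psmb5, Psmb6, Psmb7, Psmd14, Psmd4, Psme1, Psme2 and Psmc3ip, and up to 6 called genes of the pathway list, some of which are not reported here. The genes, lists and tests were chosen with earlier results of these data known. Transcript lengths, overlaps and near-copies (BLAST 2.17.0) came from GENCODE vM21, of the same assembly as mm10, and promoters and coordinates from RefSeq on GRCm38.p6.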

Additional observations from a re-analysis of the deposited data

Results flagged for a closer look

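The 17 genes given per mouse and the summed level were looked at in the 12w+dox, 12w-res and 1d -dox groups, which hold 4 or 5 mice. Of these 54 sets of values, 8 held a mouse far from the others, where chance gives about 1 in 20 for a single set. All 8 came from 12w-res replicate 1 or 1d -dox replicate 1. Genes of the same mouse are not independent, so the count of 8 cannot be set against that rate. In 12w-res replicate 1, a male, Psme1 stood at 87.4 FPM against 42.5 to 54.8 FPM in the other 4 mice, Psme2 at 63.5 against 33.9 to 41.6 FPM, Psmb2 at 94.8 against 69.5 to 75.4 FPM and Psmb7 at 91.5 against 65.9 to 71.6 FPM. In 1d -dox replicate 1, a female, the 3 inducible subunits were high together, Psmb8 at 10.5 against 1.5 to 2.32 FPM, Psmb9 at 5.13 against 0.916 to 1.40 FPM and Psmb10 at 4.56 against 1.38 to 1.89 FPM, and the chaperone Psmd5 was low at 15.1 against 16.5 FPM in the other 3. Psme1 and Psme2 were also highest in that mouse, at 49.0 and 14.8 FPM, within the limit for a group of 4, and the 7 macrophage and leukocyte markers summed to 23.2 FPM there against 10.8 to 13.1 FPM in the other 3. The cause was not tested.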

How the results depend on the processing

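With TMM factors, a pseudocount of 1, no filter or at least 10 reads in every mouse, the counts of called genes stayed within 1.5 times those given. Scaling by totals of reads, which moved the median of all genes by 0.30, -0.60 and -0.30, gave 4 higher and 4 lower with a median of -0.057 for 12w+dox against 6w+dox, 0 higher and 42 lower with -0.59 for 12w-res against 12w+dox, and 0 higher and 34 lower with -0.67 for 12w-res against 6w+dox. Of all genes 24.2%, 4.79% and 6.97% were then called higher and 5.00%, 60.3% and 33.1% lower. This scaling reversed Psme3 to -0.29 and moved the short-term medians to 0.086 at 3 days, -0.14 at 5 days and -0.10 for 5 days against 1 day. Fitting only the groups compared gave 0 higher and 4 lower in the first comparison, against 5.65% and 6.06% of all genes. It gave 3 higher in the second, against 21.9%. Requiring an absolute log2 fold change over 1 left 0 higher in all 3, against 3.15%, 6.24% and 5.81% of all genes. It left 0, 1 and 3 lower, against 4.04%, 5.04% and 5.82%. With sex as a covariate 0 rose in the first and 2 in the second, against 7.66% and 18.7% of all genes. Among female mice 0 rose and 2 fell in the first, against 3.62% and 2.98%, and 9 fell in the third, against 13.2%. In the second, edgeR gave 2 higher and 1 lower, against 19.2% and 17.9% of all genes, and DESeq2 gave 2 higher, against 21.1%. Leaving out 1 mouse gave 0 to 1 higher and 1 to 25 lower in the first, 1 to 2 higher and 1 to 3 lower in the second, and 1 to 2 higher and 5 to 26 lower in the third, with medians of -0.60 to -0.15 in the third and -0.073 to -0.0091 for 5 days against 1 day. Replicate numbers do not pair mice (correlations of same-numbered mice were -0.17 to 0.24 and -0.21 to 0.17), and a replicate block gave 0 higher and 4 lower in the first, 0 and 1 in the second, 6 lower in the third, and a median of -0.073 for 5 days against 1 day. The causes were not tested. With 3 to 5 mice a group, a median SE of 0.169 on the log2 scale over the subunits limits the first comparison.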
